A study of Mus musculus with 56 samples.

Results

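The major urinary protein (Mup) genes were followed through 56 mouse liver libraries. Members were all genes whose symbol is Mup or Mup-ps followed by a number, where ps marks a pseudogene. By this rule 48 genes were found among 52230 genes with a matched transcript, and they comprised 22 coding genes and 26 pseudogenes. An additional gene of the reference annotation, Mup-ps11, was matched by no transcript of the tables analysed here.

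Livers were from male mice of the line GCKR-P446L-EMI-B6N, in which residue 446 of GKRP is proline on both alleles (PP), leucine on both (LL) or 1 of each (PL). GKRP, the glucokinase regulatory protein, binds and restrains glucokinase, the first enzyme of hepatic glucose use. The diet of all mice was rich in fat and sugar (HFHSD) and was given for 20 weeks, with 45% fat, 20% protein and 35% carbohydrate, and with 10% glucose and 5% fructose as the sugar. The PP, PL and LL genotypes were studied without (n = 10, 8 and 10) and with (n = 10, 8 and 10) a glucokinase activator (GKA) at 3 mg/kg in the diet. PP mouse 7, without GKA, was left out, as its removal is stated in the published methods, and the results rest on 55 mice. No mice on a control diet and no female mice were analysed here. The labels give no age, and the published text gives 28 weeks for mice after this diet without naming the GKA groups.

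MUPs are small secreted lipocalins, proteins with a barrel that holds a greasy ligand. In the adult male mouse they are made by hepatocytes, pass into the urine and carry volatile pheromones that mark territory and identity. Their transcription in liver is known to depend on the pulsatile growth hormone of males, through the growth hormone receptor and the transcription factor STAT5B.

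The libraries held from 5189852 to 8093368 estimated reads, with a median of 6555851. All 8 hepatocyte markers passed the filter on low counts, with summed levels of 84968 to 137774 CPM (counts scaled to a common library size), while no marker of exocrine pancreas, skeletal muscle or B cells passed. No relation of Mup reads passed the test with 5 measures (n = 55). These were the hepatocyte, macrophage and red cell marker sums, the total reads and the effective length of the transcript Mup20-201. The quantifier set this length in each library, and what it reflects was not examined. The range of r was -0.187 to 0.0739 (smallest adjusted permutation p = 0.606). That of rho was -0.222 to 0.191 (smallest adjusted permutation p = 0.406). In whole liver, fewer hepatocytes and less RNA per hepatocyte cannot be told apart.

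On GRCm39, 47 of the 48 genes lay on chromosome 4 between positions 59956804 and 62069175, a stretch of 2.11 Mb, and Mup-ps22 lay on chromosome 11. Of the 22 coding genes, 21 were on the minus strand. Among the genes the results turn on, Mup22 (ENSMUSG00000110439) spans chr4:60773560-60777599, Mup10 (ENSMUSG00000078680) chr4:60534259-60538198, Mup3 (ENSMUSG00000066154) chr4:61947447-62005620 and Mup20 (ENSMUSG00000078672) chr4:61968464-61972395, all on the minus strand. The annotated span of Mup3 contains that of Mup20, but both quantified Mup3 transcripts lie at chr4:62001713-62005620, outside Mup20. By coding sequence they fell into 16 close copies, and into 6 distinct genes, Mup3, Mup4, Mup5, Mup6, Mup20 and Mup21. The 120 pairs of close copies were 98.1% to 99.8% identical (median 99.0%), and none of these pairs was identical throughout. Close copies and distinct genes shared 83.1% to 91.3% of their coding bases. Against Mup22, the copy to which the most reads were assigned, Mup18 differed at 1 base, Mup11 at 2, Mup10 and Mup9 at 4, Mup19 at 5 and Mup7 at 9, whereas Mup20 differed at 49, Mup21 at 84 and Mup3 at 86. Positions with a gap in either gene were left out of all these counts. Mup18, Mup11 and Mup3 were compared with Mup22 over 543 bases, and the others named over 540, so differences in length are not counted.

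A 60-base window of coding exon 3 shows how far Mup3, Mup20 (darcin, the male pheromone protein) and Mup21 stand from Mup22, which bears on how safely their reads can be told apart. Sequences are from GRCm39, minus strand, 5′ to 3′, and capitals mark bases that differ from Mup22. The windows are chr4:60776019-60776078 for Mup22, chr4:62004210-62004269 for Mup3, chr4:61970887-61970946 for Mup20 and chr4:62067605-62067664 for Mup21.
Mup22: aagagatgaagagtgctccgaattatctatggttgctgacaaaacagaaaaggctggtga
Mup3: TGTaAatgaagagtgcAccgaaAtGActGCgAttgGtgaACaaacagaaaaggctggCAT
Mup20: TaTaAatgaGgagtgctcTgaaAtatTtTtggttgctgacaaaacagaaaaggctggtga
Mup21: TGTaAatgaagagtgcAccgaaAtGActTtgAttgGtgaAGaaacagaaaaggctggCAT
In this window Mup3 differed from Mup22 at 17 bases, Mup21 at 16 and Mup20 at 8, while 8 of the 16 close copies, Mup22 included, were the same throughout.

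The close copies were compared in a 60-base window of coding exon 1, chosen as a stretch of 1 exon with the most positions that vary among the genes shown, and because the reads of Mup10 and Mup22 are taken up further on. The windows are chr4:60777350-60777409 for Mup22, chr4:60538023-60538082 for Mup10, chr4:61700331-61700390 for Mup19, chr4:60070236-60070295 for Mup7, chr4:60377821-60377880 for Mup9 and chr4:61513933-61513992 for Mup17, on the minus strand, with capitals as before.
Mup22: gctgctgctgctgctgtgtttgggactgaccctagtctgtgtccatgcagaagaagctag
Mup10: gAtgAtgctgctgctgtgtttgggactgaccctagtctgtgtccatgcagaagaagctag
Mup19: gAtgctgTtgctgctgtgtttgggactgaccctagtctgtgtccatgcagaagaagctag
Mup7: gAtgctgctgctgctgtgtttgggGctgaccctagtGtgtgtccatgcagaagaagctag
Mup9: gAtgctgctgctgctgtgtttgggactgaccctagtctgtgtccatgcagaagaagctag
Mup17: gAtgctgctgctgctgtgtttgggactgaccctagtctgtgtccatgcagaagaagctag
Of the 60 positions, 5 varied among these 6 genes, Mup9 and Mup17 were the same throughout, and 3 of the 16 close copies, Mup22 included, had the sequence of Mup22. The window starts at coding base 9 in Mup22 and at coding base 6 in the others. The alignment thus set a gap before it, and the capitals near its start may depend on where that gap was placed.

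The transcripts were next divided into all their stretches of 31 bases, the default word length of the Salmon quantifier. Sequences were those of GENCODE M39, whereas Salmon was run against M26. Of the 76 Mup transcripts, 47 had the same length in both, and Mup22-201 had 861 bases as quantified and 994 in M39. All word shares here and further on are those of the M39 sequences and may differ for the sequences quantified. A word found in a single gene can assign a read to that gene directly, and a shared word cannot. Among the 16 close copies, 0% to 31.0% of a gene's words were its own (median 7.74%), with 3.53% for Mup22 and 0% for Mup19 and Mup15. The distinct genes had 35.5% to 78.7% own words, with 67.0% for Mup3, 35.5% for Mup20 and 73.4% for Mup21. Of the 76 Mup transcripts, 9 had no word of their own. The division of reads among close copies is thus an estimate of the quantifier and is uncertain, while the sum over the family and the levels of Mup3 and Mup21 rest on more bases that tell genes apart.

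The Mup family held 15.1% ± 7.09 (SD, n = 55) of all estimated liver reads. Across single mice this share ran from 3.83% in LL mouse 38 (95% exact binomial interval 3.82% to 3.85%) to 32.4% in LL mouse 46 (32.4% to 32.4%), intervals that cover counting error only. The share was above 20% in 11 mice and below 10% in 17. Albumin (Alb), the main plasma protein, held 7.88% ± 1.67 of the reads, and Mup reads exceeded Alb reads in 41 of 55 livers.

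Without GKA the lowest, median and highest Mup shares were 8.21%, 11.9% and 22.5% in 9 PP livers, 7.28%, 17.2% and 28.7% in 8 PL livers, and 3.83%, 11.4% and 32.4% in 10 LL livers. With GKA they were 4.01%, 13.1% and 22.0% in 10 PP livers, 4.66%, 14.6% and 30.3% in 8 PL livers, and 7.70%, 15.9% and 19.3% in 10 LL livers. All 6 groups overlapped widely, and the group means lay between 13.8% and 17.1%. The difference between mice of a group was thus larger than that between groups: the highest LL liver was 8.45-fold above the lowest, and even in the narrowest group, LL with GKA, the span was 2.51-fold. PP mouse 7, left out above, had 3.75% Mup reads (95% exact binomial interval 3.73% to 3.76%), below every other mouse.

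**Figure D1:**
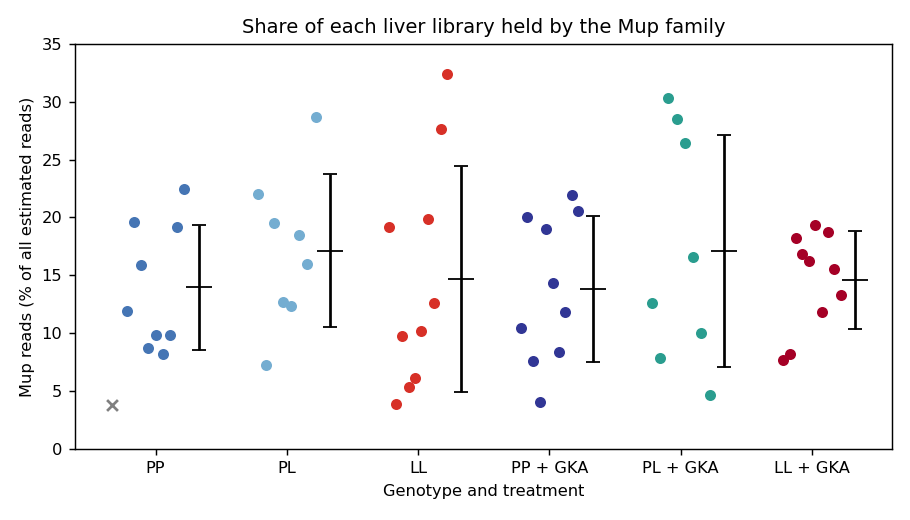
Share of all estimated reads held by the Mup genes (%), 1 point per mouse, by genotype and treatment, with group means and SD. The 6 groups overlap, with means from 13.8% to 17.1%, and single livers run from 3.83% to 32.4%.

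In TPM, a unit corrected for transcript length and scaled to a fixed total per library, the family share was 26.3% ± 12.3 (6.34% to 57.3%, n = 55). The group means were 25.6% in PP, 32.9% in PL and 25.3% in LL without GKA, and 24.5%, 25.8% and 24.8% with GKA. Transcripts under 500 bases, described further on, held 22.9% ± 25.1 of the family TPM. The TPM share was also higher in LL mouse 42 without GKA (25.8%), where the read share was 10.2%, or 10.4% without these transcripts. The part of transcript length in the higher values was not tested.

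The spread of Mup reads between mice of a group was large for so abundant a product. The SD within groups on the log2 CPM scale was 0.915 for all Mup reads together, above 95.6% of 10881 genes, whose median was 0.303. Several other abundant secreted liver proteins had much smaller SDs, at 0.246 for Alb, 0.235 for transthyretin (Ttr), 0.241 for Rbp4, a lipocalin that carries retinol, and 0.370 for Apoa1. Not all did: Serpina1c (0.500) and Serpina3k (0.488), named after their values were seen, lay higher, and Apoa4, also secreted, exceeded the family. Of the 100 genes of highest mean CPM, 11 were Mup genes, and among the other 89 the median SD was 0.277 and 2 exceeded the family, Gm28661 (2.71) and Apoa4 (0.969), genes named after their values were seen. Within the family, Mup3 (0.499) and Mup20 (0.596) varied less than Mup21 (0.898) and the sum of the close copies (1.02). Single close copies such as Mup19 (1.19) and Mup7 (1.65) had larger SDs, which include the uncertain division of reads. The SD of Mup22 was 2.38 with all 55 mice and 0.626 without LL mouse 48 with GKA, the only liver with 0 Mup22 reads, left out after seeing the data, so that without it Mup22 varied less than the sum of the close copies (1.02).

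Of the 48 members, 11 coding genes held at least 1% of the family reads each, and together 97.0% ± 4.08. Mup22 had the highest mean share (25.3% ± 8.97), followed by Mup19 (15.9% ± 3.83), Mup7 (14.8% ± 5.95), Mup3 (8.02% ± 2.78) and Mup9 (7.23% ± 6.46). Mup20 (6.99% ± 4.50), Mup14 (6.28% ± 3.12), Mup11 (3.73% ± 1.54), Mup15 (3.31% ± 1.52), Mup17 (3.07% ± 1.03) and Mup16 (2.32% ± 1.13) followed. Neighbours in this order, such as Mup19 and Mup7, or Mup3, Mup9, Mup20 and Mup14, differed by less than their spread over mice, and these shares are not corrected for length. Mup22 took the most reads in 37 of 55 mice, Mup7 in 12, Mup9 in 3, Mup19 in 2 and Mup10 in 1. The 16 close copies together held 84.3% ± 6.63 of the family reads (60.6% to 92.5%).

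**Figure D2:**
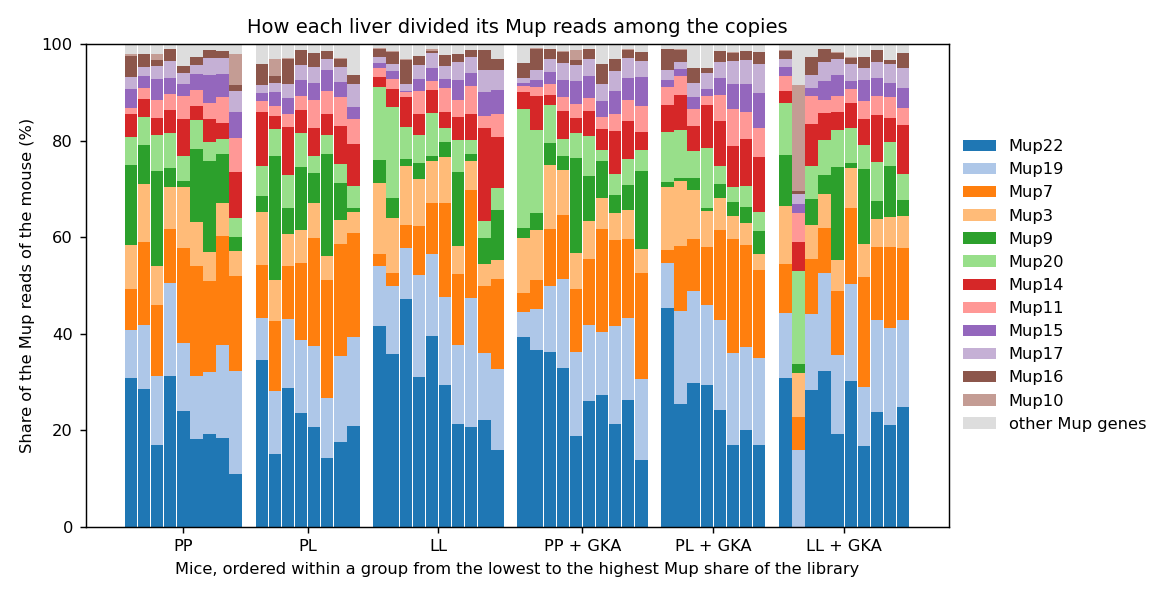
Division of the Mup reads of each mouse among the Mup genes (%), 1 bar per mouse, ordered within each group from the lowest to the highest Mup share of the library. Mup22, Mup19 and Mup7 lead on average (25.3%, 15.9% and 14.8%), and the division differs between mice of the same group.

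On the length-corrected scale the order of median TPM was Mup22 (46171), Mup7 (26403), Mup19 (26051), Mup9 (20218), Mup14 (15377), Mup3 (12686) and Mup20 (9298), with Mup21 at 332. The other coding genes were minor in these livers. Mup10, Mup1, Mup18, Mup2, Mup12, Mup21, Mup13 and Mup8 held 0.717%, 0.574%, 0.434%, 0.307%, 0.162%, 0.146%, 0.0574% and 0.0432% of the family reads, and Mup4, Mup5 and Mup6 had medians of 12.4, 14.9 and 7.00 reads per library. Mup4 and Mup5 are known for expression in glands outside the liver.

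The 26 pseudogenes held 0.578% ± 0.877 of the family reads (0.0114% to 3.24%). For 5 of them no read was estimated in any of the 55 mice, 13 in all had a median below 1 read, 12 had a median of 1 to 100 reads and 1, Mup-ps19, had a median of 154 (0 to 21822). Mup-ps19 shares 94.1% of its words with Mup20, so its reads and those of Mup20 are uncertain.

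Short transcripts weighed differently in reads and in TPM. The 12 Mup transcripts under 500 bases held 6.15% ± 6.93 of the family reads (0.00281% to 25.7%) and 22.9% ± 25.1 of the family TPM, up to 92.1% in 1 mouse. Among them were Mup9-205 (369 bases, a retained intron), Mup9-206 (338 bases) and the single transcript of Mup-ps17 (218 bases). Mup9-205 was below 1 read in 27 mice and reached 192460 in another, while all of its words occur in Mup10 as well. Mup9 accordingly held 7.23% of the family reads but 21.8% of the family TPM. For Mup-ps17 the estimate ran from 0 to 27861 reads, on an effective length that fell to 10.1 bases in 1 mouse. Switches of this kind were also seen between full-length transcripts: Mup14-202 was below 1 read in 50 mice and reached 130050 in another, whereas the pair of Mup3 transcripts divided evenly (50.6% and 49.4%).

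Whether GKRP genotype or GKA changed Mup expression was tested with edgeR in 9 comparisons, which share groups of mice with one another. A DEG had an FDR below 0.05, and its ratio had to reach 1.3 upwards or 0.7 downwards. Counted as 1 feature, all Mup reads did not pass the test in any of the 9 comparisons. Mean levels were 142577 CPM in PP, 175594 in PL and 161036 in LL without GKA, and 143151, 191549 and 150133 CPM with GKA. By LL genotype the log2 fold change against PP was 0.18 ± 0.41 (SE, adjusted p = 0.919) without GKA and 0.08 ± 0.30 (adjusted p = 0.967) with GKA. By PL genotype it was 0.30 ± 0.30 (adjusted p = 0.833) without GKA and 0.42 ± 0.42 (adjusted p = 0.864) with GKA.

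LL differed from PL by -0.14 ± 0.43 without GKA (log2, adjusted p = 1.00) and by -0.35 ± 0.37 with GKA (adjusted p = 0.851). GKA gave 0.00 ± 0.33 in PP, 0.12 ± 0.42 in PL and -0.09 ± 0.39 in LL (log2, adjusted p of 0.983 or more). No comparison had an unadjusted p under 0.05, by edgeR (smallest 0.333) or by DESeq2 (0 of 9). Over the 9 comparisons the lowest end of a 95% interval was 0.460-fold (LL against PL with GKA). The highest end was 2.46-fold (PL against PP with GKA). Single intervals were narrower than this span, such as 0.792-fold to 1.92-fold for PL against PP without GKA. For LL against PP with GKA the interval was 0.681-fold to 1.63-fold. The smallest change detectable with such spread between mice was not tested. The effect of GKA did not differ detectably by genotype, with interaction terms of -0.10 ± 0.53 (LL against PP, p = 0.857) and 0.12 ± 0.55 (PL against PP, p = 0.825) on the log2 scale.

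**Figure D3:**
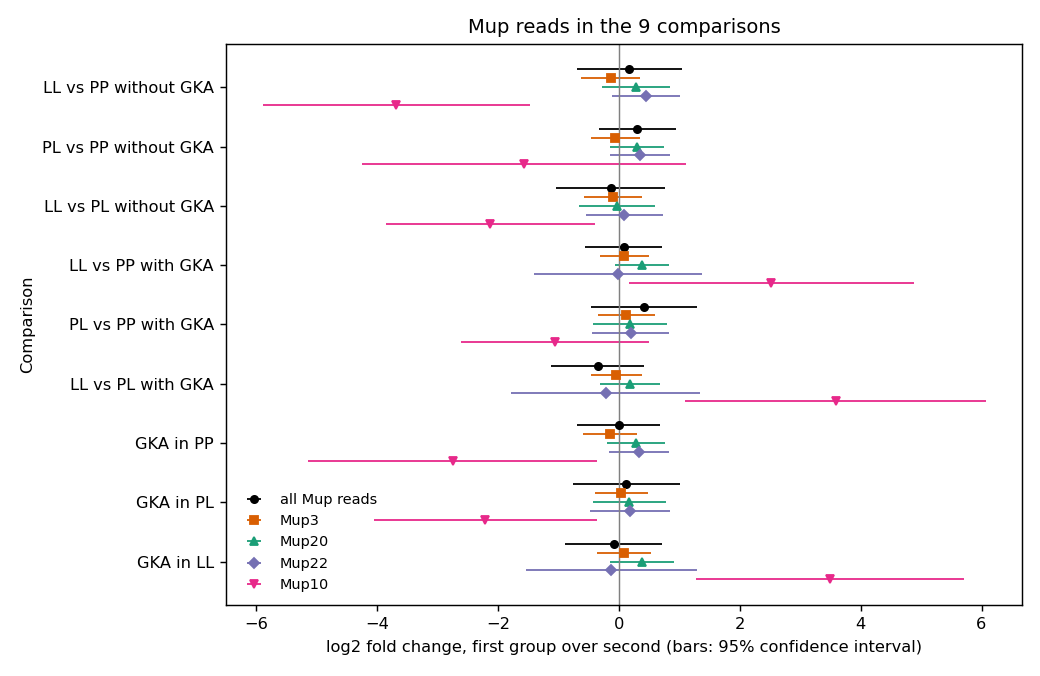
Log2 fold changes of Mup reads in the 9 comparisons (first group over second) with 95% confidence intervals from edgeR, for all Mup reads counted as 1 feature and for Mup3, Mup20, Mup22 and Mup10. Intervals cross 0 in all 9 comparisons for all Mup reads, Mup3, Mup20 and Mup22, while Mup10 runs from -3.68 to 3.59.

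Tested gene by gene, 27 to 29 members passed the filter on low counts per comparison, 29 in any (21 coding genes and 8 pseudogenes) and 27 in all. The 19 that never passed were Mup6 and 18 pseudogenes. With edgeR, 0 members were called DEGs in any comparison. Over all genes the share called was 0.0854% for LL against PP, 0.151% for PL against PP and 0.00942% for LL against PL without GKA, 0.239% for LL against PP with GKA, and 0% for the other 5 comparisons.

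At an unadjusted p under 0.05 the members counted 2 of 27 for LL against PP without GKA (11.8% of all genes), 2 of 28 for PL against PP (10.1%) and 3 of 28 for LL against PL (4.58%). With GKA they counted 3 of 27 for LL against PP (10.4%), 1 of 28 for PL against PP (8.19%) and 3 of 29 for LL against PL (8.60%). For GKA itself they counted 1 of 28 in PP (3.56%), 1 of 28 in PL (3.18%) and 2 of 27 in LL (6.15%). In all, 18 of 250 tests (7.20%) were below 0.05, of which 7 were of Mup10, and the tests are not independent. DESeq2 called 1 member, Mup13, in LL against PP with GKA. For the DESeq2 calls here and further on, the share called over all genes is not given, so they cannot be set beside it.

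In some comparisons most tested members lay on the same side of 0. In PL against PP, 23 of 28 members were higher without GKA (median log2 fold change 0.37) and 25 of 28 with GKA (0.40), and for LL against PL with GKA 22 of 29 were lower (-0.29). The medians over all genes were -0.00377, -0.000265 and -0.00245 in these comparisons. These members share reads, so their common direction is not evidence apart from the family sum, which did not pass the test.

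Mup3, with coding sequence distant from the close copies, moved little: its log2 fold changes over the 9 comparisons were -0.15 to 0.12. Its lowest, median and highest CPM were 6488, 12089 and 15384 in PP, 7023, 10526 and 14838 in PL, and 4857, 10256 and 16230 in LL without GKA. With GKA they were 4016, 11432 and 13883 in PP, 5426, 10740 and 16252 in PL, and 6267, 10746 and 15079 in LL. All groups overlapped over most of their ranges.

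Mup20, or darcin, had log2 fold changes of -0.03 to 0.39. In LL the lowest, median and highest CPM were 3580, 7157 and 18599 without GKA and 7734, 10544 and 16380 with GKA, against 4078, 6562 and 9993 in PP and 3353, 9169 and 12264 in PP with GKA. The change by GKA in LL was 0.39 ± 0.26 (SE, adjusted p = 0.866), and that by LL genotype with GKA was 0.38 ± 0.22 (adjusted p = 0.593). Mup21 ran from 43.8 to 553 CPM over all mice (median 173), and its log2 fold changes were -0.49 to 0.61, none past the test.

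Among the close copies, Mup22 had a lowest, median and highest CPM of 14839, 27680 and 40452 in PP, 17829, 34781 and 69213 in PL, and 13819, 36418 and 74820 in LL without GKA. Its log2 fold change was 0.45 ± 0.27 for LL against PP (adjusted p = 0.546) and -0.22 to 0.45 over the 9 comparisons. Mup7 varied most in LL, from 817 to 77675 CPM (95.1-fold), and its log2 fold changes lay between -0.68 and 0.58. Those of Mup19 lay between -0.38 and 0.58, of Mup9 between -1.51 and 0.95, of Mup14 between -0.84 and 1.14, and of Mup11 between -0.87 and 1.10. For Mup15 they were -0.99 to 0.78 and for Mup17 -0.78 to 0.76. None of these passed the test in any comparison.

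The member with the smallest p differed between comparisons. For PL against PP without GKA it was Mup16, with a lowest, median and highest CPM of 1101, 2737 and 3505 in PP and 1711, 4363 and 6290 in PL, groups that overlap. Its log2 fold change was 0.77 ± 0.25 (SE, p = 0.00558, adjusted p = 0.238). For LL against PL without GKA it was Mup2. Its highest PL liver, mouse 28, was at 11842 CPM, while the other PL livers lay at or below 245 CPM and the LL livers between 16.0 and 633. The log2 fold change of Mup2 was -3.09 ± 1.04 (SE, p = 0.00771, adjusted p = 0.732), and without PL mouse 28, an alternative chosen after seeing the data, it was 0.27 ± 0.60.

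For LL against PP with GKA the member with the smallest p was Mup13, with a lowest, median and highest CPM of 0.826, 18.7 and 68.8 in PP and 10.4, 40.4 and 577 in LL. Its log2 fold change was 2.76 ± 0.79 (SE, p = 0.00211, adjusted p = 0.162) with edgeR, and 2.76 ± 0.77 (adjusted p = 0.0342) with DESeq2, under which it was called. The groups overlapped, and with each of the 20 mice left out in turn the edgeR value ran from 2.21 to 3.16, with adjusted p from 0.130 to 0.249. For PL against PP with GKA the smallest p was that of Mup18, with 42.0, 391 and 686 CPM in PP and 190, 895 and 1466 CPM in PL (1.00 ± 0.48, p = 0.0492, adjusted p = 0.606).

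Mup10 had the smallest p in the other 5 comparisons, and single livers held most of its reads. Without GKA its lowest, median and highest CPM were 61.9, 92.5 and 15074 in PP, 42.7, 123 and 4205 in PL, and 31.4, 92.5 and 432 in LL. With GKA they were 44.0, 86.8 and 2100 in PP, 41.0, 126 and 235 in PL, and 55.0, 118 and 15078 in LL. The medians of the 6 groups thus lay between 86.8 and 126 CPM, and 1 liver in each of 4 groups stood far above the rest.

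The Mup10 log2 fold change was -3.68 ± 1.06 by LL genotype without GKA (SE, p = 0.00240, adjusted p = 0.142) and 3.49 ± 1.07 by GKA in LL (p = 0.00356, adjusted p = 0.616). The interaction of GKA with LL genotype was 6.20 ± 1.65 (p = 5.67e-04, adjusted p = 0.505). At an unadjusted p under 0.05 this interaction counted 3 of 30 members (5.75% of all genes) and that with PL genotype 0 of 31 (3.35%), with an adjusted p under 0.05 for 0% of all genes in both.

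Leaving out the single highest liver, chosen after seeing the data, changed these values. Without PP mouse 10 the Mup10 log2 fold change was -0.68 ± 0.61 for LL against PP, 1.43 ± 0.95 for PL against PP and 0.27 ± 0.81 for GKA in PP. Without PL mouse 25 it was 0.24 ± 0.49 for LL against PL and 0.14 ± 0.41 for GKA in PL, and -3.92 ± 1.27 for PL against PP. Without LL mouse 48 with GKA it was -0.06 ± 0.46 for GKA in LL, 0.04 ± 0.41 for LL against PL and -1.02 ± 0.69 for LL against PP, both with GKA. Without PP mouse 18 with GKA it was 0.73 ± 0.33 for PL against PP and 4.29 ± 1.11 for LL against PP, both with GKA, and -4.51 ± 1.10 for GKA in PP. None of these had an adjusted p below 0.117. DESeq2, which replaces extreme counts, gave -0.61 ± 0.60 for LL against PP without GKA and -0.08 ± 0.46 for GKA in LL.

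In LL mouse 48 with GKA, 127147 reads were assigned to Mup10, or 21.9% of its Mup reads (95% exact binomial interval 21.8% to 22.0%). In the same liver 0 of 580703 Mup reads were assigned to Mup22, which allows a share of up to 0.000517% on counting error alone. All other livers had Mup22 reads. PP mouse 10 had 6.33% of its Mup reads on Mup10 (6.29% to 6.36%) and 10.9% on Mup22 (10.9% to 11.0%), while the median Mup10 share over 55 mice was 0.0665%. As given above, these genes differ at 4 of the 540 coding bases compared, gaps left out. Mup10-201, the longer transcript of Mup10, shares 89.5% of its words with Mup22.

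Counted together, Mup10 and Mup22 held 26.0% ± 8.03 of the Mup reads (13.9% to 47.3%, n = 55), and in LL mouse 48 with GKA the sum was within this range, at 21.9%. As 1 feature, an alternative chosen after seeing the data, their log2 fold changes over the 9 comparisons were -0.16 to 0.37, with a smallest adjusted p of 0.644. Most of this sum was Mup22 (median 24.2% of the Mup reads, against 0.0665% for Mup10), so it could not test the Mup10 values. LL mouse 48 with GKA and PP mouse 10 had the 2nd and 3rd shortest effective lengths of the transcript Mup20-201 (298 and 299 bases, against 478 ± 101 over all mice). Among other short livers, Mup10 was at 432 CPM in LL mouse 42 (275 bases), the 6th highest of the 55 mice. It was at 110 in PP mouse 15 with GKA (307) and 73.1 in LL mouse 41 (308), the 26th and 38th highest. The next shortest had 219 in PL mouse 29 with GKA (325), 224 in PL mouse 28 (360), 70.4 in PL mouse 30 with GKA (363), 166 in LL mouse 45 (366) and 1011 in PP mouse 8 (381). PL mouse 25 and PP mouse 18 with GKA, also high in Mup10, had 460 and 473 bases. Across the 55 mice the r of Mup10 with this effective length was -0.391 (permutation p = 0.00328, adjusted 0.0558), and -0.380 without 2 mice. The rho was -0.224 (permutation p = 0.101, adjusted 0.304). With adjustment over 17 measures neither passed, and r came close to the threshold. The part of effective length in the Mup10 values was not tested further.

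**Figure D4:**
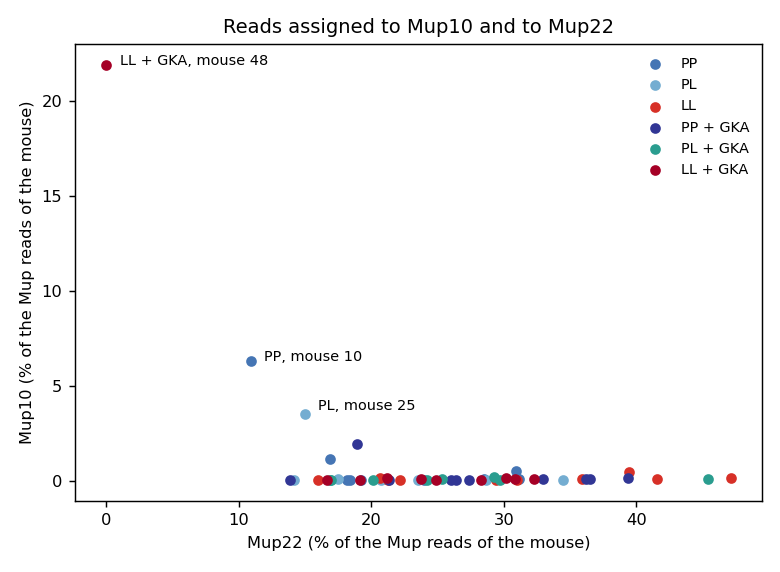
Reads assigned to Mup10 (vertical) and Mup22 (horizontal), both as % of the Mup reads of the mouse, 1 point per mouse, coloured by group. Most livers lie near 0 on the Mup10 axis, and 1 liver, LL mouse 48 with GKA, has 21.9% on Mup10 and 0% on Mup22.

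Genes of the growth hormone axis and genes of known sex bias in liver were examined beside the family. In the 9 comparisons 18 of 20 growth hormone axis genes, 17 of 17 male-biased genes, 5 of 18 female-biased genes (6 in PL against PP with GKA) and 7 of 10 other lipocalins were tested. With edgeR 0 of these genes were called, 45 of 424 tests (10.6%) had an unadjusted p under 0.05 beside 7.40% of 94609 tests over all genes, and DESeq2 made 2 calls, Elovl3 for LL against PP without GKA and Cyp17a1 for LL against PL with GKA. This share differed between the lists, at 14 of 46 tests (30.4%) for the female-biased genes, 16 of 162 (9.88%) for the growth hormone axis, 13 of 153 (8.50%) for the male-biased genes and 2 of 63 (3.17%) for the other lipocalins. At an unadjusted p under 0.05, LL against PP without GKA had 3 of 18, 3 of 17, 3 of 5 and 0 of 7, in the order of the lists above, beside 11.8% of all genes. The median log2 fold change of the male-biased genes was 0.33 for PL against PP without GKA, 0.32 for LL against PP with GKA and -0.20 for LL against PL without GKA. Without GKA, that of the 5 female-biased genes tested was 0.54 in LL relative to PP and 0.80 relative to PL (4 of 5 higher in each), and it was 1.00 for GKA in PL (5 of 5 higher). The medians of all genes in these comparisons were 0.012, 0.00055 and 0.0074. The female-biased median was -0.18 for PL against PP without GKA and -0.19 for LL against PL with GKA (4 of 5 lower in each). With GKA it was 0.0075 for LL against PP and 0.079 for PL against PP. For GKA itself it was 0.19 in PP and -0.0036 in LL, so its sign changed between comparisons.

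Elovl3, a male-biased fatty acid elongase, was at 118 CPM in LL and 254 CPM in PP without GKA (log2 fold change -1.11 ± 0.26, SE, p = 4.01e-04, adjusted p = 0.0888). It missed the threshold with edgeR and passed with DESeq2 (-1.11 ± 0.26, adjusted p = 0.00642). Cyp17a1, a female-biased steroid hydroxylase, had -1.15 ± 0.30 with DESeq2 for LL against PL with GKA (adjusted p = 0.0311). Hsd3b5, a male-specific steroid dehydrogenase, had a value of 0.16 ± 0.63 in the same comparison, and Cyp2d9, a male-biased steroid hydroxylase, lay within -0.10 to 0.10 over the 9. Of the upstream genes, Ghr, the receptor, lay within -0.08 to 0.12. Stat5b and Igf1 had their smallest p in LL against PP with GKA (-0.29, p = 0.0252, adjusted p = 0.391, and 0.29, p = 0.0458, adjusted p = 0.472). Socs2, the feedback inhibitor of the receptor, had its largest value for GKA in PP (1.06 ± 0.60, adjusted p = 1.00).

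The differences between mice of a group were shared, to unlike degrees, with the male-biased genes that were correlated. Over 55 mice with group means subtracted on the log2 CPM scale, all Mup reads were correlated with 12 genes, with 100000 permutations each and Benjamini-Hochberg adjustment over the 12. These 12 were a part of the growth hormone and sex-biased lists, and the other listed genes were not correlated. For Cyp7b1, an oxysterol hydroxylase, r was 0.890 (rho 0.895), for Hsd3b5 0.835 (rho 0.829), for Cyp2d9 0.769 (rho 0.744), and for Serpina1e, a male-biased serine protease inhibitor, 0.711 (rho 0.732). Ghr, from the growth hormone axis list and not the male-biased list, followed with 0.637 (rho 0.638). Cyp2b9, a female-biased cytochrome P450, ran the opposite way (r = -0.632, rho = -0.710). For each of these 6 genes the permutation p was 1e-05 for both measures, the smallest the permutations can give, and the adjusted p was 2.00e-05.

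Weaker relations were found for Elovl3 (r = 0.406, permutation p = 0.00225, adjusted 0.00386, rho = 0.385, permutation p = 0.00392, adjusted 0.00672) and Cyp4a12a (r = 0.353, permutation p = 0.00834, adjusted 0.0125, rho = 0.304, permutation p = 0.0249, adjusted 0.0374). For Igf1 the measures divided (r = 0.231, permutation p = 0.0887, adjusted 0.118, rho = 0.283, permutation p = 0.0366, adjusted 0.0488). No relation passed for Cyp17a1, the other female-biased gene correlated (r = -0.125, adjusted permutation p = 0.435, rho = -0.0808, adjusted 0.608). The same held for Socs2 (r = -0.00767, adjusted permutation p = 0.955, rho = -0.00671, adjusted 0.962) and Stat5b (r = -0.0900, adjusted permutation p = 0.560, rho = -0.110, adjusted 0.510).

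Without the 2 mice farthest from the median of Mup reads, LL mouse 38 and PP mouse 14 with GKA, r was 0.918 for Cyp7b1, 0.841 for Hsd3b5, 0.735 for Cyp2d9, 0.802 for Serpina1e, 0.617 for Ghr, -0.717 for Cyp2b9, 0.418 for Elovl3 and 0.358 for Cyp4a12a. For Igf1 it was 0.385, for Cyp17a1 -0.0546, for Socs2 0.0557 and for Stat5b -0.137. The labels give no litter, harvest day or time of day, so relations within such batches could not be computed.

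**Figure D5:**
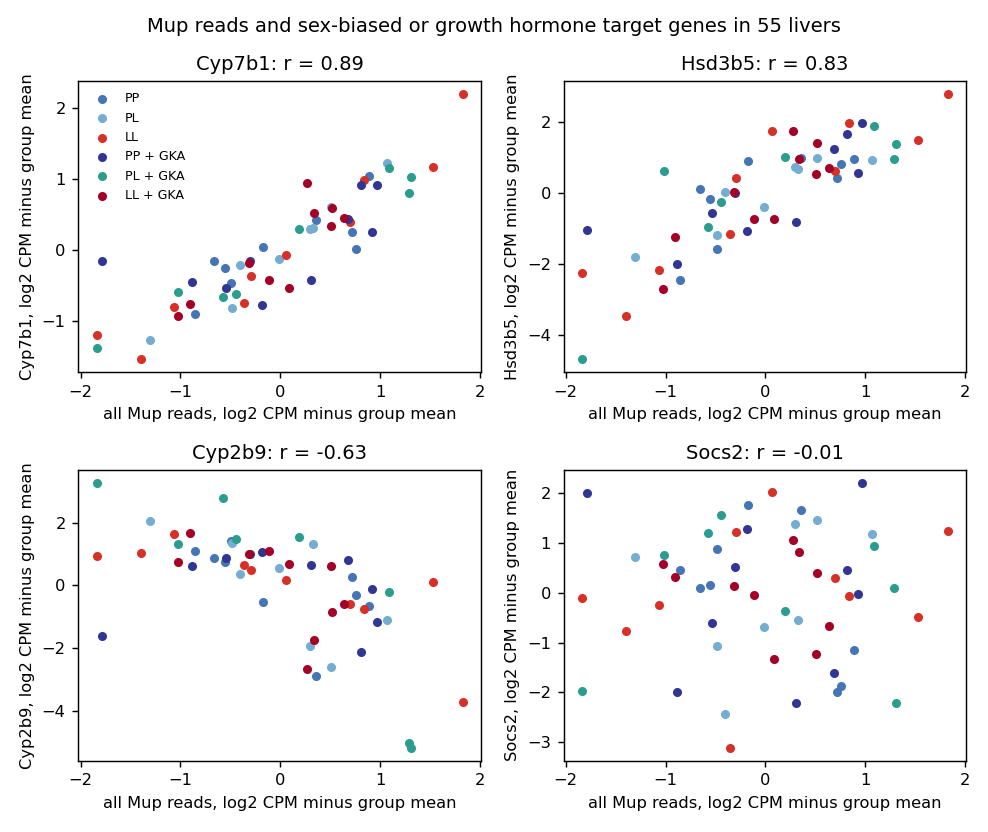
All Mup reads (horizontal) against single genes (vertical) in 55 livers, both as log2 CPM minus the group mean, coloured by group. The panels show Cyp7b1 (r = 0.890), Hsd3b5 (r = 0.835), Cyp2b9 (r = -0.632) and Socs2 (r = -0.00767), with points of all 6 groups mixed.

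Genes beside the cluster on chromosome 4 had a smaller spread than the family. Snx30, before the cluster, and Slc31a1, a copper transporter gene after it, had SDs within groups of 0.433 and 0.135 (log2). The lncRNA genes Gm13775, Gm13773 and Gm12909 within the cluster had 0.590, 0.672 and 0.599, and of these Gm13775 and Gm13773 share words with Mup transcripts, so that their reads are uncertain. For the 9 tested genes beside and within the cluster, edgeR made 0 calls, 5 of 81 tests had an unadjusted p under 0.05, and DESeq2 made 0 calls.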

How the data were processed

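Liver RNA was sequenced by the authors and quantified with Salmon 1.4.0 against the GENCODE M26 transcriptome (GRCm39) after FastQC. The deposited tables give, per transcript and mouse, the estimated count (NumReads), TPM, length and effective length. Salmon divides reads that match several transcripts by a likelihood, so values of near-identical Mup copies are estimates.

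Transcripts were assigned to genes of GENCODE M39 by unversioned identifier (137570 of 139225 matched, 98.8%, with 99.8% to 99.9% of reads), estimated counts were summed per gene and rounded to whole numbers, and genes were tested with edgeR 4.0.16 (R 4.3.3; quasi-likelihood test, TMM, filterByExpr, Benjamini-Hochberg adjustment over all 10399 to 10616 genes of a comparison), each fit with the mice compared. All Mup reads were also counted as 1 feature in a separate fit. CPM are TMM-scaled, and log2 CPM used a prior count of 2. DESeq2 1.42.0, RLE size factors, no low-count filter, library sizes without Mup reads, an effective length offset, omission of transcripts under 500 bases, 1 fit of all groups, inclusion of PP mouse 7 and omission of single mice were alternatives. The edgeR step was tested on simulated data. Correlations used scipy 1.17.1.

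Groups came from the labels. Nothing states litters or batches, and p-values measure the spread between these mice. Named members were those with at least 1% of family reads, those called, and those with the smallest p in a comparison, and Mup3, Mup20, Mup21 and the minor genes were described in addition. The lists of growth hormone, sex-biased, lipocalin and marker genes were from general knowledge. Members and lists were chosen with earlier results of these data known. Depth was 5189852 to 8093368 estimated reads per library. No table of protein sequences was used here.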

Additional observations from a re-analysis of the deposited data

Results flagged for a closer look

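The family share and the 15 named genes were examined in each of the 6 groups of mice (96 sets of values). The highest liver stood apart from the others of its group by Dixon's criterion 16 times. Its chance rate of about 1 in 20 holds for normally distributed values. The values were taken without logs and Mup CPM are skewed towards high values, so the 16 cannot be set against that rate. The genes also share reads. All 16 were high values of close copies. For Mup10 they were 15074 CPM in PP mouse 10, 4205 in PL mouse 25, 2100 in PP mouse 18 with GKA and 15078 in LL mouse 48 with GKA. For Mup2 they were 1421 in PP mouse 3, 11842 in PL mouse 28, 2141 in PP mouse 15 with GKA and 3220 in PL mouse 29 with GKA. For Mup13 they were 158 in PP mouse 10, 830 in PL mouse 21 and 444 in LL mouse 39. For Mup18 they were 1454 in PL mouse 21 and 4654 in LL mouse 48 with GKA. PP mouse 10 had 22863 CPM of Mup14, and PL mouse 28 had 69213 CPM of Mup22 and 15427 CPM of Mup17. The part of the division of shared reads in these values was not tested.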

How the results depend on the processing

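The count of 0 members called was kept in 74 of 75 values under other settings and in 39 of 39 with 1 mouse left out; DESeq2 called 1 member for LL against PP with GKA. No fold change of all Mup reads passed the test under any setting (75 values, smallest adjusted p 0.595; 39 with 1 mouse left out, smallest 0.827). Its sign turned for GKA in PP without a low-count filter (-0.00479) and with an effective length offset (-0.23), and for GKA in PL with that offset (-0.74). With 1 mouse left out it ran from -0.11 to 0.30 for LL against PP without GKA (-0.018 without LL mouse 45, -0.11 without LL mouse 46), and from -0.038 to 0.19 with GKA (-0.010, -0.038 and -0.0013 without PP mice 13 and 14 and LL mouse 52, all with GKA). Mup10 and Mup22 were also counted as 1 feature, chosen after seeing the data. The fold change of this sum was 0.37 (LL against PP), 0.28 (PL against PP) and 0.071 (LL against PL) without GKA, 0.19 (PL against PP) and -0.16 (LL against PL) with GKA, and 0.25, 0.17 and -0.064 for GKA in PP, PL and LL. These signs are opposite to those of Mup10 alone. The sum was mostly Mup22 (median 24.2% of the Mup reads, against 0.0665% for Mup10), so it could not test the Mup10 values. With its highest liver left out the Mup10 fold change turned to -1.02 (LL against PP with GKA) and -0.064 (GKA in LL) without LL mouse 48 with GKA, to 1.43 (PL against PP) and 0.27 (GKA in PP) without PP mouse 10, to 0.24 (LL against PL) and 0.14 (GKA in PL) without PL mouse 25, and to 0.73 (PL against PP with GKA) without PP mouse 18 with GKA. Leaving a mouse out kept its direction at -3.92 (PL against PP, without PL mouse 25), and at 4.29 (LL against PP with GKA) and -4.51 (GKA in PP) without PP mouse 18 with GKA. That of Mup2 for LL against PL turned to 0.27 without PL mouse 28. These were also chosen after seeing the data. The family share in TPM moved to 25.6% in PP, 32.9% in PL, 25.3% in LL, 24.5% in PP with GKA and 24.8% in LL with GKA. Except where the construction shows it, the cause was not tested. All 24 alternative values of r for the 12 correlations kept their direction and side of the threshold. By rho, Igf1 lost its call, with an adjusted permutation p of 0.0635 with CPM computed without Mup reads and 0.0566 with PP mouse 7 kept. No paired analysis was possible because the mice carry numbers that no groups share. Depth limits the rarer members, of which 19 of 48 could not be tested, and the spread between mice limits the family.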

Other observations

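Levels of the distinct genes were compared with the sum of the close copies, which does not depend on how reads were divided among them. Over 55 mice with group means subtracted (log2 CPM), 6 pairs chosen after seeing the data were correlated, with adjustment over the 6. The sum of the close copies followed Mup3 (r = 0.895, rho = 0.862, r without 2 mice 0.871) and Mup21 (r = 0.892, rho = 0.880, 0.874), and Mup3 followed Mup21 (r = 0.887, rho = 0.878, 0.868), each with a permutation p of 1e-05 for r and rho, the smallest the permutations can give. For Mup20, r was 0.590 with Mup21 (rho = 0.580, r without 2 mice 0.557, adjusted permutation p = 1.50e-05). It was 0.529 with the close copies (rho = 0.533, r without 2 mice 0.565, adjusted permutation p = 3.60e-05) and 0.409 with Mup3 (rho = 0.434, r without 2 mice 0.415, adjusted permutation p = 0.00198). Whether these correlations differ from one another was not tested.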
